A study of Homo sapiens with 6 samples.

Results

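Olfactory receptor genes of the OR5, OR6, OR8 and OR10 families were followed as a set of genes that a neuroblastoma cell line would not be assumed to use. The members were defined by their symbols: every gene whose single annotated symbol begins with OR5, OR6, OR8 or OR10, then letters and a final number, was taken, with no filter on level. That gave 128 of 18244 genes, 45 in OR5, 29 in OR6, 20 in OR8 and 34 in OR10. Where a gene had several probe sets, the one that was brightest on average over the 6 arrays stood for it, so the brightest value of a gene is by construction the one shown, and OR5A2 was picked from the comparison of the groups because its difference stood out there. Its values in that comparison are therefore a description.

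SH-SY5Y is an established line from a human neuroblastoma, a tumour of the sympathetic lineage. Cells were transfected with 15 pM of an anti-miR against hsa-miR-137 (miR-137 knockdown, 3 arrays) or with Anti-miR Negative Control #1 (3 arrays), 24 hours after seeding, with Lipofectamine RNAiMAX in both groups. Total RNA was taken 72 hours after transfection. The comparison asks which transcripts differ after inhibition of this microRNA. The labels number the replicates 1 to 3 in each group without saying whether they were separate cultures, so a p-value here reflects only how far these arrays differ, which may be technical, and with 3 arrays a group the precision is limited. Of 14 listed sympathetic neuroblastoma markers 13 were measured, and all 13 lay above the median gene, from PRPH at 7.82 to CHGA at 14.47 on the log2 scale. PRPH, TH at 8.28, NEFM at 8.87, GAP43 at 10.34 and PHOX2A at 10.63 lay below the brightest of the array's background probe sets, at 11.04. The other measured markers lay above it. The RNA came from whole cultures, so fewer cells that use a gene and less of its RNA per cell cannot be told apart.

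Olfactory receptors are G protein-coupled receptors that bind odorants in the cilia of olfactory sensory neurons. Binding activates the olfactory G protein and adenylyl cyclase, and the cyclic AMP formed opens a cyclic nucleotide-gated channel. Each such neuron uses a single receptor gene, while the other receptor genes lie silent in heterochromatin, and most tissues outside the nose transcribe few of them. OR5, OR6, OR8 and OR10 belong to class II, the larger receptor class of land vertebrates, and the genes stand in clusters of close paralogs, so that a probe for a receptor can also match its relatives.

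The inhibited microRNA is shown first, because its complement is the agent used. The mature strand with its seed, bases 2 to 8, in capitals is given from RefSeq on GRCh38.p14, where it lies at chr1:98046091-98046113 on the minus strand.
hsa-miR-137-3p: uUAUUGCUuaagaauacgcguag
Windows from 250 bases before to 50 after the RefSeq start were found for 109 of the 128 genes. They are shown for OR5A2, the member with the largest difference between groups, for OR5A1, the gene next to it on the chromosome, and for OR5H1, the brightest member. Capitals mark matches to CCCNNGGG, the core read by the early B-cell factors that bind olfactory genes, to TAATTA, a homeodomain core of the LHX2 kind, or to TATAAA, each searched on both strands.
OR5A2, chr11:59426364-59426663, minus strand: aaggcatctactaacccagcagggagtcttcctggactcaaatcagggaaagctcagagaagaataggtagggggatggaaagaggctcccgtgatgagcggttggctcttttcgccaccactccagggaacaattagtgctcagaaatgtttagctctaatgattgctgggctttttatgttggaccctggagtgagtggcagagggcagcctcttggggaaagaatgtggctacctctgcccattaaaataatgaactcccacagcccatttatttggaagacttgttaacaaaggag
OR5A1, chr11:59436219-59436518, plus strand: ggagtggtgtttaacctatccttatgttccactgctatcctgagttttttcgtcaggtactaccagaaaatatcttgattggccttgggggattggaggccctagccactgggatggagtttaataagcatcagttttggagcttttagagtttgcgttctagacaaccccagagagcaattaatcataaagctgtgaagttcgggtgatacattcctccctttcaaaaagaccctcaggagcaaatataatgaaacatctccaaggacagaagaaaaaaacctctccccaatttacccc
OR5H1, chr3:98130471-98130770, plus strand: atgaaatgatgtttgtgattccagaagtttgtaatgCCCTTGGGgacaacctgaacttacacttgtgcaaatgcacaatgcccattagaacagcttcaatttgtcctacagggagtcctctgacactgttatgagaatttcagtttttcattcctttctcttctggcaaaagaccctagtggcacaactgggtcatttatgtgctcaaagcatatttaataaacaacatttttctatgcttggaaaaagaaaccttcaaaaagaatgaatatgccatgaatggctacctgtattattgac

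These windows were poor in G and C. Their median GC content was 36.7% over the 109 receptors, from 24.3% to 60%, against 38.7% over 159 other olfactory receptors and 58.3% over all 27305 RefSeq windows. A CpG was missing from 25 of the 109 (22.9%), against 4.16% of all windows. The CCCNNGGG core stood in 7 of the 109 (6.42%), against 18.6% of all windows. TAATTA stood in 26 (23.9%), against 4.98% of all windows, and TATAAA in 37 (33.9%), against 3264 of all 27305 windows. The 159 other olfactory receptors had similar shares. A CpG was missing from 20.8% of them, and 6.92% held CCCNNGGG, 18.9% TAATTA and 31.4% TATAAA. The windows were not matched for GC content, so how far these shares follow from base composition was not tested. OR5A2 lay above the median of the 109 in GC content, with 48.3%, and had 3 CpGs, against a median of 1, and no match. OR5A1 had 43.0% GC, 3 CpGs and no match, and OR5H1 had 37.7% GC, no CpG and 1 match to CCCNNGGG.

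Of the 128 genes, 71 lie on chromosome 11, 17 on chromosome 1, 15 on chromosome 12 and 9 on chromosome 3. RefSeq lists 127 as protein coding and 1, OR10J3, as a transcribed pseudogene. The median level was 4.39 for the genes on chromosome 11 and 4.22 for the 57 on other chromosomes.

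Nearly all of the receptors were dim. Their level, the mean log2 RMA value over 6 arrays, had a median of 4.29, a lower quartile of 3.96 and an upper quartile of 4.92, against a median of 7.34 over all genes. Below the median gene lay 127 of the 128, and 124 lay in the 4 dimmest deciles, 58 of them in the dimmest. Only 7 reached the 40th percentile of all probe sets (5.47%), a log2 value of 5.69, against 69.3% of all genes. The families lay close together, with medians of 4.25 for OR5, 4.29 for OR6, 4.24 for OR8 and 4.4 for OR10. Among the other class II receptors the median was 4.51 (157 genes), among the class I receptors 4.49 (49 genes), and among taste and vomeronasal receptors 4.08 (32 genes). The keratin-associated proteins had a higher median of 5.07 (83 genes), and 15 of them lay above the median gene.

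Non-targeting probe sets gave the measure of background. The array carries 23 manufacturer's background probe sets named by a GC number from 3 to 25, and their mean level climbed with that number, from 3.16 to 11.04 with a median of 3.79. The median receptor lay 0.51 log2 units above that median. By level, 66 receptors were nearest to the background probe sets of GC number 13 to 15, 51 to those of 16 to 18, 7 to those below 13, 3 to those of 19 to 22, and 1, OR5H1, to one of 23 to 25. The GC content of the receptor probes was not analysed here, so a receptor cannot be matched to its own background step. A further 17 control probe sets, made for tag sequences, had levels from 3.52 to 5.02 with a median of 4.07. Within that range lay 96 receptors, while 4 lay below it and 28 above it. A level in this range does not tell an absent transcript from a rare one.

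**Figure D1:**
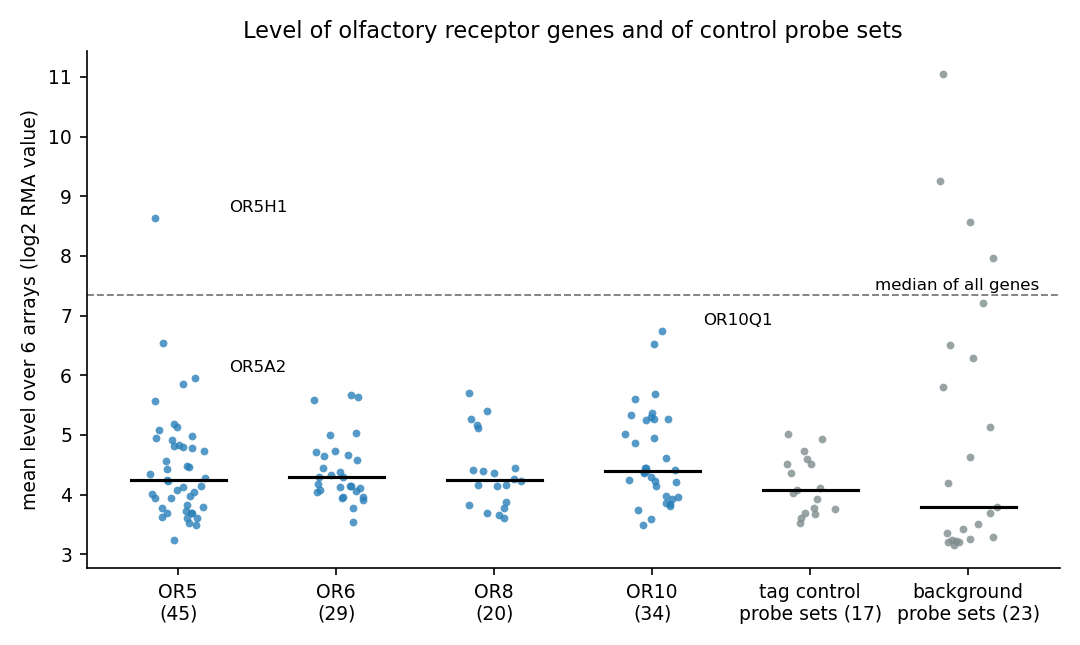
Mean log2 RMA level over 6 arrays of each olfactory receptor gene (blue points, by family) and of each tag and background control probe set (grey points). Black bars are medians and the dashed line is the median of all genes at 7.34. OR5H1 at 8.63 is the single receptor above that line.

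**Figure D2:**
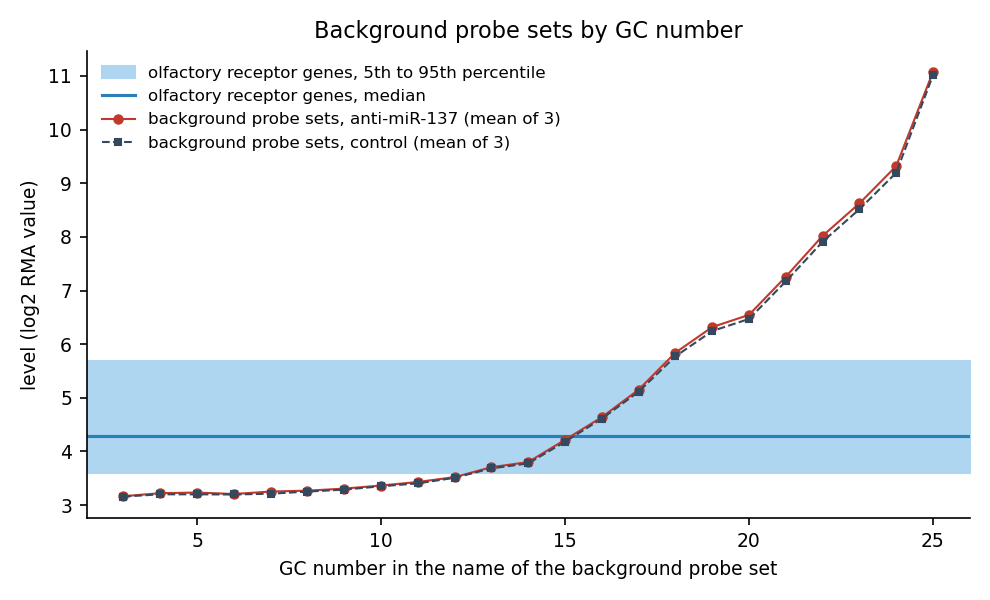
Level of the 23 background probe sets (log2 RMA value) against the GC number in their names, as means of the 3 anti-miR-137 arrays (circles) and the 3 control arrays (squares). The band spans the 5th to 95th percentile of the receptors, 3.61 to 5.69, with their median of 4.29 as a line. Background probe sets of GC number 13 to 17 lie inside this band.

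OR5H1 was the brightest receptor, on 1 of its 2 probe sets. That probe set measured 8.65, 8.94 and 8.56 in the anti-miR-137 arrays, against 8.63, 8.55 and 8.47 in the control arrays. Their mean, 8.63, lies above 66.2% of all genes, and the 2 groups overlap. Background probe sets of GC number 23 to 25, which target no transcript, averaged 8.57, 9.26 and 11.04, so this level alone does not tell a transcript from background. Its other probe set averaged 3.71, which is 4.92 log2 units lower, and a probe set annotated to OR5H1 and OR5H15 together averaged 3.69. The neighbouring receptors were dim, OR5AC2 at 3.69 and OR5H14 at 3.62. Which of the OR5H1 probe sets reports its transcript was not tested.

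After OR5H1 the levels dropped by 1.89 log2 units to the next member. OR10Q1 measured 6.71, 6.91 and 6.82 in the anti-miR-137 arrays, against 6.71, 6.63 and 6.69 in the control arrays. OR5D16 measured 6.50, 6.64 and 6.30 in the anti-miR-137 arrays, against 6.78, 6.40 and 6.66 in the control arrays. OR10P1 measured 6.64, 6.62 and 6.54 in the anti-miR-137 arrays, against 6.57, 6.25 and 6.54 in the control arrays. In all of these the groups overlap. OR5A2 came next with a mean of 5.96, above 34% of all genes, and then OR5C1 at 5.85. At the other end, OR10X1 averaged 3.48 and OR5P3 3.50, and OR5T3 averaged 3.24, close to the lowest mean of any gene (3.23).

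Some probe sets shared by several receptors were brighter than the receptors' own. They were singled out after their values were seen. There were 17 probe sets annotated to several members of the 4 families, with levels from 3.56 to 8.89. A pair of them for OR10G8, OR10G4 and OR10G7 averaged 8.89 each, while the single-symbol probe sets of these genes averaged 4.45, 3.92 and 4.38; OR10G4 encodes a receptor for guaiacol. A probe set for OR10H1 and OR10H5 averaged 7.06, against 3.59 and 3.74 for the genes' own. Of the 17, 12 had a higher mean in anti-miR-137 cells, against 56% of all genes and 65.2% of those in the 4 dimmest deciles. Among the probe sets of these genes, 3 pairs held identical values on all 6 arrays. The shared probe sets for OR10H1 with OR10H5 and for OR6B3 with OR6B2 were among these pairs. The 12 therefore count these measurements more than once. Only 6 members had more than 1 probe set of their own. Of these, OR5T1 and OR5T2 each had 2 probe sets with a higher mean in anti-miR-137 cells and 1 with a lower mean. The lower probe sets of the 2 genes held identical values on all 6 arrays, so they are 1 measurement.

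No receptor passed the test between anti-miR-137 and control cells. In limma, with Benjamini-Hochberg adjustment over all 18244 genes, 0 of 128 receptors had an adjusted p under 0.05, and 0 of all genes (0%); the smallest adjusted p among the receptors was 1.00. Without adjustment, 8 receptors were higher in the anti-miR-137 arrays at a limma p under 0.05 (6.25%), against 2.6% of all genes, and 0 were lower, against 0.921%. In the 4 dimmest deciles of all genes, where 124 of the receptors lie, the shares were 5.14% higher and 1.04% lower. The count of 8 was 4 without control replicate 2, 19 with array weights and 4 with the RNA integrity number as a covariate, with 0 genes past the adjusted threshold in each. No receptor differed by 1.5-fold, and neither did any of all 18244 genes. The 95% confidence interval lay within 0.5 log2 units of 0 for 122 of the 128 (95.3%), against 94.9% of all genes.

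The receptors leaned slightly towards higher values in anti-miR-137 cells, as dim genes did in general. Of the 128, 80 had a log2 fold change above 0 (62.5%), against 56% of all genes, and 48 had one below 0 (37.5%), against 44%. In the 4 dimmest deciles the share above 0 was 65.2%. The median log2 fold change was 0.064, against 0.042 in the 4 dimmest deciles and 0.012 over all genes. By family the medians were 0.064 for OR5, 0.076 for OR6, 0.081 for OR8 and 0.044 for OR10, with 28 of 45, 18 of 29, 13 of 20 and 21 of 34 genes above 0. The class I receptors had a median of 0.10 with 36 of 49 above 0, the other class II receptors 0.050 with 110 of 157, the taste and vomeronasal receptors 0.045 with 23 of 32, and the keratin-associated proteins of hair, 83 genes, 0.077 with 63. The median of the 128 was 0.025 without anti-miR-137 replicate 2, 0.034 without control replicate 3 and 0.039 without control replicate 2. It was 0.033 after a further quantile normalization, 0.032 after cyclic loess and 0.039 when arrays were centred on the background probe sets, all with the same sign.

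Background probe sets also had higher values in anti-miR-137 arrays. All 23 had a higher mean in anti-miR-137 than in control arrays, by 0.0078 to 0.12 log2 units with a median of 0.034, and the difference was 0.062 to 0.12 at GC numbers 18 to 25 and at most 0.04 below 18. Of the 17 tag probe sets 12 were higher, with a median of 0.065 and a range of -0.19 to 0.45. The tag probe set at 0.45 measured 4.28, 4.63 and 4.07 in the anti-miR-137 arrays, against 3.87, 3.95 and 3.82 in the control arrays. Its groups do not overlap, and its difference is larger than that of any of the 128 receptors. The part of this shift in the receptors' fold changes was not tested beyond the centring given above.

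**Figure D3:**
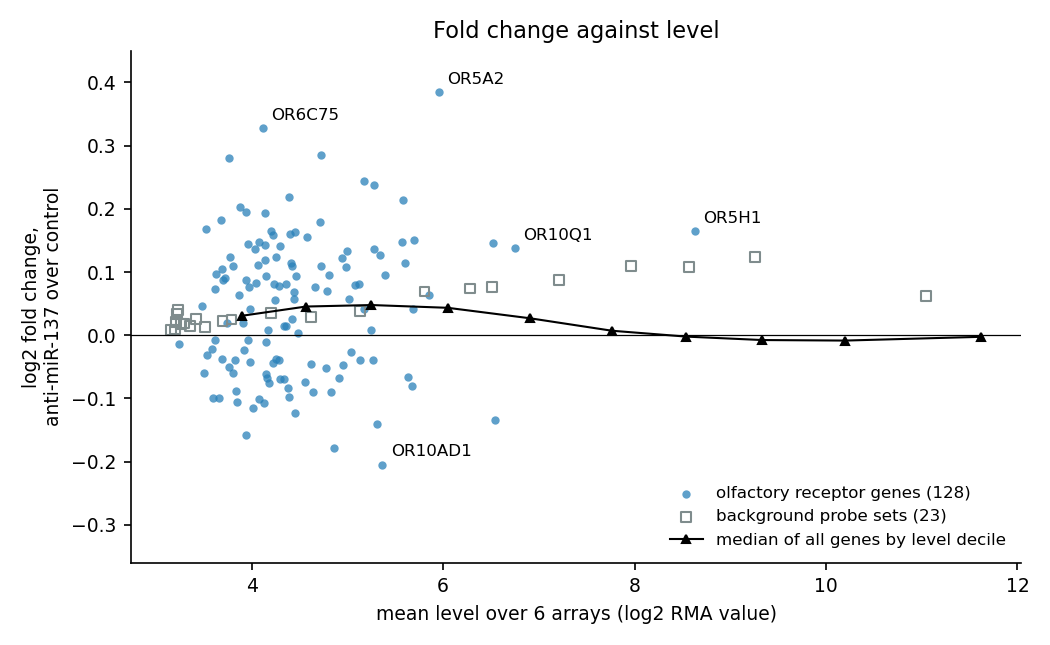
Log2 fold change, anti-miR-137 over control, against the mean log2 RMA level of each olfactory receptor (blue) and background probe set (open squares), with the median of all genes in each level decile (triangles). Background probe sets all lie above 0, the decile medians are 0.031 to 0.048 in the 4 dimmest deciles, and OR5A2 at 0.38 is the highest receptor.

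Array by array, the shift did not follow the treatment alone. The median deviation of the 128 receptors from their own 6-array means was 0.0088, 0.047 and -0.00028 log2 units in anti-miR-137 replicates 1, 2 and 3, against 0.018, -0.050 and -0.050 in control replicates 1, 2 and 3. Control replicate 1 thus lay among the anti-miR-137 arrays and the groups overlap. The background probe sets gave 0.025, 0.048 and -0.0036 in the anti-miR-137 arrays, against 0.031, -0.033 and -0.050 in the control arrays. Genes of the 4 dimmest deciles gave 0.025, 0.047 and -0.015, against 0.025, -0.035 and -0.054. Control replicates 2 and 3 were lowest in each of these 3 sets. Parts of the control sets differed in their order. The 13 background probe sets of GC number 3 to 15 gave 0.016, -0.0052 and 0.020 in the anti-miR-137 arrays, against -0.013, 0.00051 and -0.024 in the control arrays. The 10 of GC number 16 to 25 gave 0.067, 0.074 and -0.019, against 0.084, -0.063 and -0.14, with control replicate 1 the highest array. The 17 tag probe sets gave 0.019, 0.078 and 0.029, against 0.0056, -0.092 and -0.010, so that every anti-miR-137 array lay above every control array. Within replicate numbers the median difference of the receptors was 0.0047 in number 1, with 65 of 128 higher in the anti-miR-137 array, 0.095 in number 2 with 86 higher, and 0.046 in number 3 with 74 higher. The background probe sets differed by -0.0048, 0.081 and 0.052 in numbers 1, 2 and 3.

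**Figure D4:**
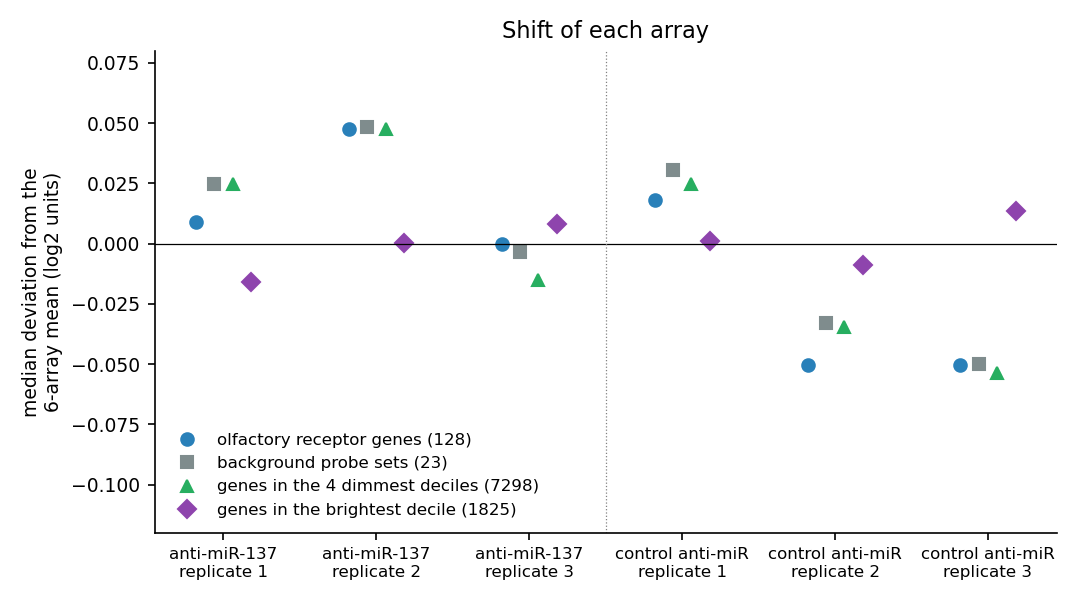
Median deviation from the 6-array mean (log2 units) in each array for the olfactory receptors (circles), background probe sets (squares), genes in the 4 dimmest deciles (triangles) and genes in the brightest decile (diamonds). The first 3 sets share their order of arrays closely, from 0.047 to 0.048 in anti-miR-137 replicate 2 to between -0.054 and -0.050 in control replicate 3, while the brightest genes stay between -0.016 and 0.013.

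OR5A2 had the highest fold change of the 128 receptors. It measured 6.22, 6.17 and 6.06 in anti-miR-137 replicates 1, 2 and 3, against 5.73, 5.76 and 5.81 in control replicates 1, 2 and 3, and every anti-miR-137 array lay above every control array. The 3 anti-miR-137 arrays averaged 6.15 ± 0.081 and the 3 control arrays 5.77 ± 0.040 (SD). The log2 fold change was 0.38 (95% interval 0.22 to 0.55), or 1.31-fold. OR5A2 was picked from this comparison, so its interval and ranks are a description and no test. It ranked 1 of 128 receptors and 18 of 18244 genes by fold change, and 2 of 18244 by unadjusted p, with an adjusted p of 1.00 in limma. The next of the 128 was 0.058 log2 units lower. Among receptors of other families, the highest log2 fold change was 0.46 in the other class II genes and 0.37 in class I, and 1 of the 17 tag probe sets also lay higher than OR5A2. Leaving out anti-miR-137 replicate 1 put it at rank 3 among the receptors, and leaving out replicate 3 of that group at rank 2. The rank was 2 with array weights and 3 with the RNA integrity number as a covariate, where the fold change itself was 0.34. Centring on the background probe sets gave 0.36. OR5A2 has a single probe set here, so no second measurement of it was at hand.

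The measured neighbours of OR5A2 on the chromosome had smaller fold changes, the largest of them 0.21 in DTX4, an E3 ubiquitin ligase gene, and 0.02 in MPEG1, the macrophage gene between DTX4 and the receptors. OR5A1, a receptor for beta-ionone, measured 4.77, 4.94 and 4.77 in the anti-miR-137 arrays, against 4.86, 4.70 and 4.70 in the control arrays. Its log2 fold change was 0.07 (95% interval -0.12 to 0.26). OR5AN1, a receptor for musk odorants such as muscone, averaged 3.85 ± 0.092 over the 3 anti-miR-137 arrays and 3.75 ± 0.062 over the 3 control arrays (SD), which is 0.11 on the log2 scale. In both, the groups overlap. The class II receptors further along had log2 fold changes of -0.05 (OR4D6), 0.13 (OR4D10) and 0.01 (OR4D11). The difference between OR5A2 and these genes was not tested, and the genes here were named after their values were seen.

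The other receptors with the largest positive values had smaller or less even differences. OR6C75 measured 4.13, 4.43 and 4.29 in anti-miR-137 arrays, against 3.96, 3.88 and 4.02 in control arrays, a log2 fold change of 0.33 (95% interval 0.12 to 0.54), without overlap. OR6P1 measured 4.92, 5.20 and 4.50 in anti-miR-137 arrays, against 4.72, 4.50 and 4.55 in control arrays, so its 0.28 rested on anti-miR-137 replicates 1 and 2. OR6C6 measured 3.64, 3.91 and 4.18 in anti-miR-137 arrays, against 3.72, 3.46 and 3.71 in control arrays, a log2 fold change of 0.28 with overlapping groups. OR8K5 (0.24), OR10H2 (0.24) and OR8H1 (0.20) had groups that did not overlap. These 3, OR5A2, OR6C75 and OR10C1 (0.16), OR6M1 (0.21) and OR8I2 (0.16), the last 3 named after their values were seen, were the 8 at an unadjusted p under 0.05. The adjusted p of every one was 1.00 in limma.

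Negative values were smaller. OR10AD1 measured 5.21, 5.14 and 5.44 in anti-miR-137 arrays, against 5.58, 5.43 and 5.40 in control arrays, a log2 fold change of -0.20 (95% interval -0.43 to 0.021). It was the only receptor below -0.2, where 9 lay above 0.2. The 5th and 95th percentiles of the log2 fold change were -0.11 and 0.22 over the receptors, against -0.14 and 0.18 over all genes. After OR10AD1, the next 4 negative values by size were OR10K2 with -0.18, OR6K6 with -0.16, the pseudogene OR10J3 with -0.14 and OR5D16 with -0.13. OR5H2 with -0.10 and OR5B12 with -0.11 were among the 5 smallest unadjusted p-values of the receptors below 0. All 6 had intervals that included 0. Groups did not overlap for 19 receptors with higher values (14.8%), against 5.51% of all genes and 8.43% in the 4 dimmest deciles, and for 2 with lower values (1.56%), OR5H2 and OR5AC2, against 2.87% of all genes. The anti-miR-137 array was the higher in all 3 numbers for 31 receptors (24.2%), against 16.3% of all genes and 19.2% in the 4 dimmest deciles.

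**Figure D5:**
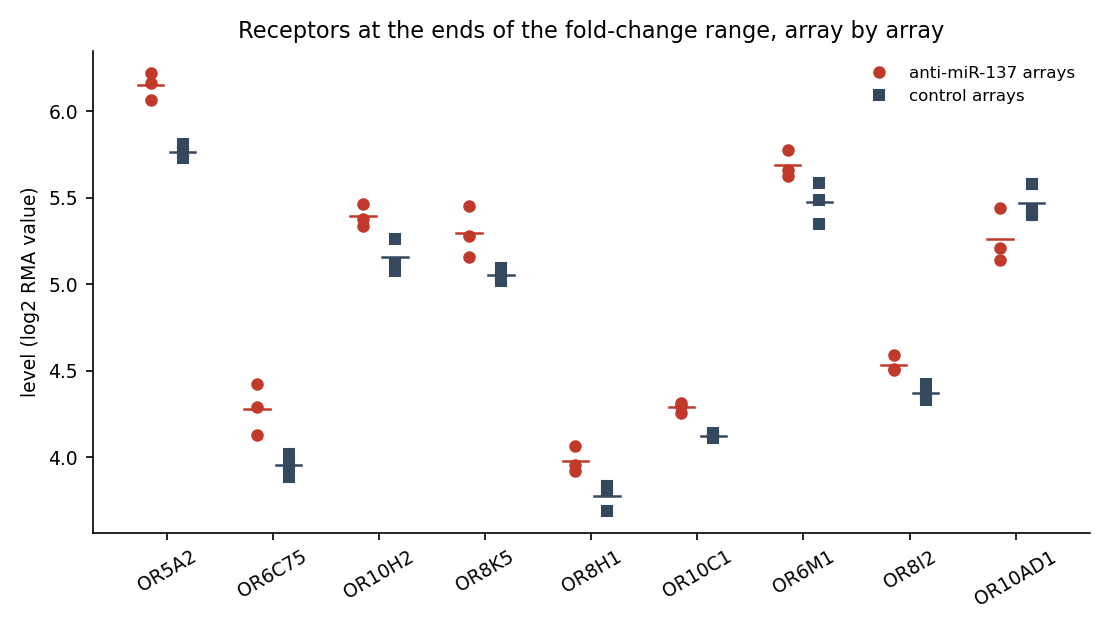
Log2 RMA values in each anti-miR-137 array (red circles) and each control array (dark squares), with group means as bars, for the 8 receptors at an unadjusted p under 0.05 and for OR10AD1, the receptor with the lowest fold change. OR5A2 shows the widest gap, 6.06 to 6.22 in anti-miR-137 arrays against 5.73 to 5.81 in control arrays.

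The spread between arrays was that of dim genes. The SD within groups had a median of 0.12 log2 units over the 128 receptors, against 0.11 over all genes and 0.13 in the 4 dimmest deciles. It ran from 0.017 in OR5AC2 to 0.34 in OR5T2, which measured 4.18, 4.77 and 3.88 in anti-miR-137 arrays, against 4.12, 4.41 and 4.13 in control arrays. The median half-width of a receptor's 95% interval was 0.22 log2 units, against 0.20 over all genes.

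Genes that a working olfactory neuron needs ranged from dim to bright. Of 21 listed genes of olfactory signalling and receptor trafficking 20 were measured. Of these, 9 had values above 0 and 11 below, where 56% of all genes lay above 0. Their median log2 fold change was -0.013, with 0 past the adjusted threshold in limma. At an unadjusted limma p under 0.05, 2 of the 20 were higher, against 2.6% of all genes. The bright ones are used widely in neurons: REEP2 at 10.72 and REEP1 at 7.96, which shape the endoplasmic reticulum, the receptor kinase GRK3 at 10.71, the G protein subunit GNB1 at 10.53, the exchange factor RIC8B at 8.75 and the adenylyl cyclase ADCY3 at 8.34. All 6 had intervals that included 0, with log2 fold changes of -0.08, -0.13, -0.02, -0.14, 0.01 and -0.04 in that order. Background probe sets of GC number 21 to 24 averaged 7.21 to 9.26, a range that holds REEP1, RIC8B and ADCY3. The levels of these genes alone do not tell a transcript from background. Of the background probe sets only that of GC number 25, at 11.04, lay above REEP2, GRK3 and GNB1. The GC content of these genes' probes was not analysed, so they were not matched to a background step. The olfactory G protein GNAL was dim at 4.08. The channel subunit CNGB1 averaged 5.62 ± 0.11 over the 3 anti-miR-137 arrays and 5.39 ± 0.098 over the 3 control arrays (SD), a difference of 0.23 on the log2 scale, and CNGA4 had 0.15; both had an adjusted p of 1.00 in limma.

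Measured markers of the olfactory epithelium all lay below the median gene. Of 9 markers of olfactory sensory neurons 8 were measured, with levels from 3.85 to 6.36 and 0 above the median gene; the olfactory marker protein OMP averaged 5.67 ± 0.26 over the 3 anti-miR-137 arrays and 5.76 ± 0.19 over the 3 control arrays (SD). The median of the 8 was 5.63, against 4.29 over the receptors, and 3 of the 8 reached the 40th percentile of all probe sets. Of all genes 69.3% reached it. All 4 measured markers of sustentacular and gland cells, of 5 listed, lay between 4.19 and 5.78, and 1 reached that percentile. Regulators of receptor choice were mixed. Of 15, 13 had values above 0 and 2 below, where 56% of all genes lay above 0. Their median log2 fold change was 0.024, against 0.012 over all genes. In limma 0 passed the adjusted threshold, and 0 had an unadjusted p under 0.05. LHX2, a homeodomain factor that receptor choice needs in mouse, was dim at 3.93, while KDM1A, the histone demethylase LSD1 that acts in the same choice in mouse, was bright at 12.08. GNAL, OMP, LHX2, KDM1A, PRPH, CHGA, TH, NEFM, GAP43 and PHOX2A were named after their values were seen.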

How the data were processed

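For each of the 6 samples, 100 ng of total RNA was amplified, labelled with biotin and hybridised to a 1-colour array, per the labels' protocols. The authors deposited a log2 value for each probe set, made with RMA in R 3.0.1, per the submitters' processing notes. RMA corrects background, equalises the arrays' distributions and summarises probes, which would hide a change common to all transcripts. Of 49495 probe sets, 102 were controls, 45278 had 1 symbol in the platform annotation, 1333 several and 2782 none. Gene IDs of 45208 were found in RefSeq (GRCh38.p14). All 6 columns were mapped by their labels, and scanner files were not used here.

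Each gene was represented by its brightest probe set, without a level filter. A linear model with a term for group was fitted by lmFit and eBayes of limma 3.58.1 under R 4.3.3, and its two-sided p-values were adjusted by Benjamini-Hochberg over 18244 genes, with a threshold of 0.05. All arrays were distinct, with root mean square differences between pairs of 0.15 to 0.23 on the log2 scale.

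The members, lists and tests were chosen with earlier results of these data known. Named by rule were OR5A2, the 6 brightest and 3 dimmest members, the 5 of each direction with the largest fold change and the 5 with the smallest p, and for olfactory signalling the 6 brightest genes and 2 with the smallest p. Further gene lists covered other olfactory receptors, taste and vomeronasal receptors, keratin-associated proteins, regulators of receptor choice, and markers of SH-SY5Y, olfactory neurons and supporting cells. Alternatives were filters, averaged probe sets, suffixes that mark possible cross-hybridisation, 4 normalizations, a trended prior, array weights, the replicate block, the RNA integrity number and leaving out each array. Promoter windows and the microRNA sequence come from RefSeq, with the first listed window per gene.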

Additional observations from a re-analysis of the deposited data

How the results depend on the processing

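No gene (0) passed the adjusted threshold in limma in any alternative run for that count, including each array left out (0 to 0) and every probe set as its own feature, which was chosen after seeing the data. Adding probe sets of several matching symbols was run for the 2 medians only. The number of receptors higher at an unadjusted p under 0.05, 8 with the settings described, was 4 with a filter at the 20th percentile (47 receptors left), 1 at the 40th (7 left), 4 with the RNA integrity number, 19 with array weights, 3 with centring on the background probe sets, 5 each with cyclic loess, quantile normalization and a trended prior, and 4 to 12 with an array left out. The 0 with lower values became 1 each with array weights, background centring, cyclic loess and quantile normalization, and 0 to 2 with an array left out. With the replicate block 12 were higher and 2 lower. The labels do not say that the numbers pair the samples, so they were not taken as pairs. Over all genes, deviations of same-numbered arrays from their group means correlated at 0.39, 0.014 and 0.50. Across the groups, 4 of 6 arrays correlated best with their own number, as a hint of pairing from the data. Over the receptors alone the correlations were 0.084, -0.15 and 0.13.

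The median log2 fold change was 0.15 over the 7 receptors left by the filter at the 40th percentile, and 0.025 to 0.075 with an array left out. The median level above background was 1.34 and 2.74 log2 units with the 2 filters, which remove dim receptors, 0.22 against the tag probe sets (chosen after seeing the data), and 0.49 to 0.53 with an array left out. The fold change of OR5A2 was 0.35 to 0.43 with an array left out; its rank was 2 with array weights, 3 with the RNA integrity number and 1 to 3 with an array left out.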
